A study of Mus musculus with 3 samples.

Results

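The potassium channel genes of the arcuate nucleus are described here across cell types. Members were all genes whose symbol starts with Kcn and that had at least 50 UMIs (unique molecular identifiers, each marking 1 captured transcript) over the 3 libraries of the study. Of 99 such symbols among 31253 listed genes, 83 were members and 16 fell below the minimum. The members were 28 voltage-gated subunits, 13 inward rectifiers, 10 tandem-pore subunits, 7 silent subunits, 12 accessory subunits and 5 genes that encode no subunit. The other 8 were Kcnma, Kcnn, Kcnt and Kcnu genes, grouped here by symbol as calcium- or sodium-activated. Just outside the minimum stood Kcng4 with 42 UMIs, and just inside it Kcnk4 with 72, Kcna3 with 74 and Kcnrg with 77 UMIs.

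Single cells of the arcuate nucleus, a hypothalamic centre of appetite control, came from male C57BL/6JRj mice of 5 to 6 weeks. From weaning, the SC mice had 15 days of standard chow. The 5-day HFHS mice had 10 days of standard chow, after which they got food rich in fat and sugar (HFHS, labelled 58%) for the last 5 days, and the 15-day HFHS mice got it for all 15 days. Tissue of 6 mice per diet was micropunched and pooled before a droplet library was made. With 1 library per diet, a difference between diets had no replicate check and no test was made. Diet also cannot be told apart from the pool and the preparation of its library.

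Potassium channels let potassium leave or enter cells down its gradient. They set the resting potential, end action potentials and, in glia, take up the potassium that active neurons release. Inward rectifiers and tandem-pore channels open near rest, and voltage-gated channels open on depolarisation. Calcium- and sodium-activated channels follow the ion inside the cell. Silent and accessory subunits make no channel alone and change the gating or traffic of the pore-forming ones. In the arcuate nucleus, channels gated by ATP are known to link the firing of appetite neurons to fuel supply.

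Of 7116 barcodes and 59315940 UMIs in the SC library, 4907 barcodes were kept. Of 6204 barcodes and 52735770 UMIs at 5 days, 4107 were kept, and of 7823 barcodes and 43193012 UMIs at 15 days, 5259 were kept. Barcode sequences shared between libraries numbered 13 (SC and 5-day), 72 (SC and 15-day) and 85 (5-day and 15-day). Cells were classed from clusters made without any Kcn gene, and the 9 classes that reached 100 cells in every library enter the comparisons. They held 131 (pericyte-like, 5-day) to 1268 (astrocyte-like, 15-day) cells and 837619 to 15014687 UMIs per library. Every marker of a class was detected in its own cells in each library, for example 16 of 16 for astrocyte-like and 15 of 15 for neuron-like cells. Class names were rebuilt from marker genes and may differ from those of the study. Neuron-like cells numbered 376 (SC), 301 (5-day) and 417 (15-day). A second clustering placed 73, 56 and 44 of them in subclusters named for other cell types, mostly for oligodendrocytes. Counts over neuron-like cells are given with and without these named subclusters. A further subcluster of 63, 82 and 66 cells, led by Mbp and Mobp, had too few markers to be named and stayed in both counts. Levels are UMIs scaled to 1000000 UMIs of a class and library (CPM), with exact Poisson intervals at 95% that cover counting error only. They are not scaled by transcript length, so they rank cell types for 1 gene, not genes.

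Kcnj10 and Kcnj8 are inward rectifiers led by different glial and vascular classes, and their promoters are shown for that reason. Kcnj10 encodes the main potassium uptake channel of astrocytes. Kcnj8 encodes the pore of the ATP-sensitive channel of vascular mural cells. The 250 bases before the RefSeq start are printed in the direction of transcription from GRCm38.p6, at chr1:172340960-172341209 on the plus strand for Kcnj10 and at chr6:142571615-142571864 on the minus strand for Kcnj8, with GC boxes (CCGCCC or GGGCGG) in capitals.
Kcnj10: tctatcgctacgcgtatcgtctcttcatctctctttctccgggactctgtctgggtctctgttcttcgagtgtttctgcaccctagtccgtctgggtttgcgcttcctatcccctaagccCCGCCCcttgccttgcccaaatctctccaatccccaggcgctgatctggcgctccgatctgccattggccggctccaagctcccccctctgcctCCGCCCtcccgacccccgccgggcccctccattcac
Kcnj8: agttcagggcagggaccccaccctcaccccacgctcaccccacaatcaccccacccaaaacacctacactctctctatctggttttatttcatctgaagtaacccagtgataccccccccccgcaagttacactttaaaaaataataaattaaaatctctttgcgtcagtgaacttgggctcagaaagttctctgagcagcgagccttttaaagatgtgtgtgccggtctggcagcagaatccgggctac
The Kcnj10 window held 2 GC boxes, 17 CpG dinucleotides and 62.0% G or C. The Kcnj8 window held no GC box, 6 CpG dinucleotides and 49.2% G or C. Of 32851 windows of this length in the RefSeq table, 32.7% held a GC box and 12.4% held TATAAA or TTTATA, and the median window had 6 CpG and 52.4% G or C. Among members, 59 had 82 windows in the table, of which 38 (46.3%) held a GC box and 3 (3.66%) held TATAAA or TTTATA. Both motifs were searched on both strands, and a match is a string of letters, not a bound site.

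Most members had 1 class that led in every library. The class of highest CPM was the same in all 3 libraries for 70 of 83 members (84.3%), against 69.2% of all 16825 genes with at least 50 UMIs. It stood at least 2 times above the next class in all 3 libraries for 37 members (44.6%), against 22.4% of all genes. Neuron-like cells led 33 members (39.8%), against 15.1% of all genes, and 18 members at 2 times the next class (21.7%), against 5.08%. Astrocyte-like cells led 11 members (13.3%, all genes 7.67%), and cells like oligodendrocyte precursors (OPC) led 7 (8.43%, all genes 10.5%). Pericyte-like and ependymal-like cells led 5 members each (6.02%), against 3.9% and 9.17% of all genes. Microglia-like cells led 4 (all genes 8.48%), oligodendrocyte-like cells 3 (5.5%), tanycyte-like cells 1 (2.95%) and endothelial-like cells 1 (5.94%). Without the neuron-like cells of subclusters named for other cell types, 72 members had 1 leading class and neuron-like cells led 35. The 135 of these cells named for oligodendrocytes had 179 CPM of Kcnc1 and 203 CPM of Kcnma1, both led by neuron-like cells. They had 66.8 CPM of Kcna1, which oligodendrocyte-like cells led. Leaving them out thus also took out RNA of neuron-led members.

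Summed over all members, neuron-like cells stood highest, at 3875 (SC), 3079 (5-day) and 3036 (15-day) CPM. Part of this sum was Kcnq1ot1, which encodes no subunit, at 1118 (SC), 873 (5-day) and 755 (15-day) CPM. With Kcnq1ot1 left out of every class, neuron-like cells would not stand highest in the 5-day and 15-day libraries. OPC-like cells had 2808 to 3080 CPM and astrocyte-like cells 2739 to 2931 CPM over the 3 libraries. Pericyte-like, ependymal-like and oligodendrocyte-like cells had 1144 to 1452 CPM, tanycyte-like cells 824 to 894 CPM, microglia-like cells 523 to 564 CPM and endothelial-like cells 240 to 309 CPM.

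**Figure D1:**
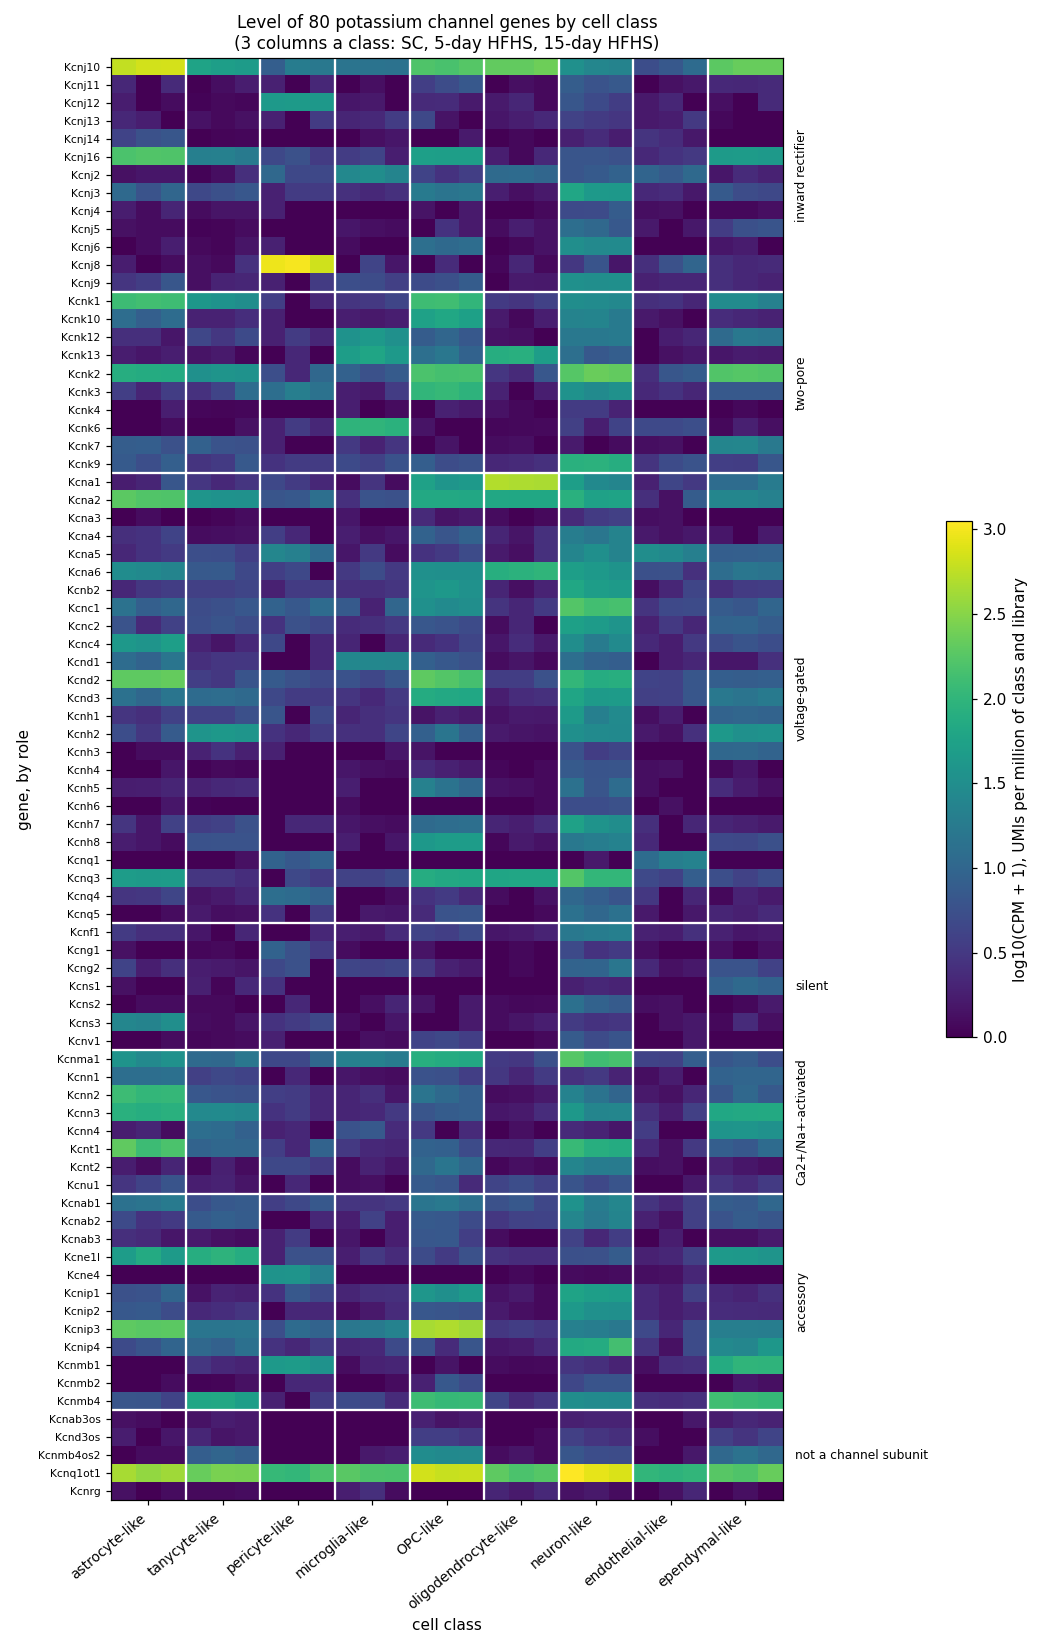
Level of 80 of the 83 members (rows, grouped by role) in 9 cell classes (columns, each with the SC, 5-day and 15-day library), as the log10 of CPM + 1 on a colour scale. The 3 libraries of a class look alike, and neuron-like cells led 33 of all 83 members.

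Among inward rectifiers, Kcnj10 and its partner subunit Kcnj16 were led by astrocyte-like cells. Kcnj10 stood in astrocyte-like cells at 583 (SC, interval 554 to 613), 698 (5-day, 671 to 725) and 717 (15-day, 691 to 745) CPM. Oligodendrocyte-like cells had 206 to 235 CPM, ependymal-like cells 189.7 to 216 CPM, and tanycyte-like cells had 45.9 to 57.9 CPM. Astrocyte-like cells held 2.81 (SC), 3.24 (5-day) and 3.05 (15-day) times the level of the next class. With each cell thinned to 1000 UMIs, a Kcnj10 UMI was seen in 41.7% (SC), 44.3% (5-day) and 45.6% (15-day) of astrocyte-like cells and in 0.658%, 1.41% and 1.64% of endothelial-like cells, which should lack it. Unthinned, the shares were 69.0 to 80.1% of astrocyte-like and 3.95 to 5.22% of endothelial-like cells. Kcnj16 had 150.2 to 166 CPM in astrocyte-like cells, 49.7 to 52.0 CPM in OPC-like cells and 0.163 to 1.24 CPM in oligodendrocyte-like cells, so oligodendrocyte-like cells, with 206 to 235 CPM of Kcnj10, were near 0 for Kcnj16.

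Pericyte-like cells led Kcnj8 and Kcnj12. Kcnj8 stood in pericyte-like cells at 927 (SC, interval 872 to 985), 1014 (5-day, 947 to 1084) and 682 (15-day, 627 to 739.8) CPM. The next class had 2.14 (neuron-like, SC), 5.18 (neuron-like, 5-day) and 8.94 (endothelial-like, 15-day) CPM, so no other compared class came near it. Smooth muscle-like cells, also of the vessel wall, numbered 25 (SC), 12 (5-day) and 26 (15-day). They were too few to be compared. Thinned to 1000 UMIs, 61.8% (SC), 62.2% (5-day) and 53.9% (15-day) of pericyte-like cells had a Kcnj8 UMI, against 0%, 0% and 0.328% of endothelial-like cells, and unthinned these were 81.6 to 88.3% of pericyte-like and at most 3.95% of endothelial-like cells. Abcc9, which encodes the regulatory subunit that pairs with Kcnj8, was also led by pericyte-like cells, with 559.7 to 619.6 CPM against 8.06 to 10.6 CPM in endothelial-like cells. Kcnj12, a strong inward rectifier, had 41.6 to 45.4 CPM in pericyte-like cells and 2.57 to 5.56 CPM in neuron-like cells.

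The G-protein-gated rectifiers Kcnj3, Kcnj5, Kcnj6 and Kcnj9, which slow neurons when inhibitory receptors are active, were all led by neuron-like cells. Kcnj3 had 63.5 (SC), 43.9 (5-day) and 41.7 (15-day) CPM there, Kcnj6 26.1 to 31.4, Kcnj9 30.9 to 32.7 and Kcnj5 5.92 to 11.8 CPM. For Kcnj5, ependymal-like cells had 5.19 CPM at 15 days, near the 5.92 CPM of neuron-like cells. Kcnj11, the pore of the ATP-sensitive channel of neurons, stood at 4.98 to 6.84 CPM and its regulatory subunit Abcc8 at 7.18 to 9.01 CPM in neuron-like cells. The neuronal ATP-sensitive pair was thus sparse in counts, with 24 to 32 Kcnj11 UMIs per library. Kcnj4, another strong inward rectifier, had 3.85 to 6.69 CPM in neuron-like cells. Kcnj2, of the same group, was led by microglia-like cells at 22.7 to 30.2 CPM, against 9.11 to 10.8 CPM in oligodendrocyte-like cells, and Kcnj14 by astrocyte-like cells at 3.11 to 5.46 CPM.

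The tandem-pore genes, which carry background potassium current, had 5 different leading classes. Kcnk6 stood in microglia-like cells at 94.9 (SC), 97.6 (5-day) and 87.0 (15-day) CPM, against 3.66 to 4.47 CPM in endothelial-like cells, and a UMI was seen in 8.84%, 7.55% and 6.10% of thinned microglia-like cells (32.7 to 35.3% unthinned) and in none of the 260 to 322 thinned OPC-like cells. Kcnk12, also led by microglia-like cells, had 33.4 to 42.3 CPM there and 15.6 to 17 CPM in neuron-like cells. Kcnk13, a pore known for the resting potential of microglia, had its highest level in oligodendrocyte-like cells at 79.1 (SC), 83.8 (5-day) and 48.6 (15-day) CPM, with microglia-like cells at 48.4, 60.7 and 41.8 CPM. OPC-like cells led Kcnk3, an acid-sensitive pore, at 92.5 to 109 CPM against 27.7 to 34.4 CPM in neuron-like cells, and Kcnk10, a stretch-sensitive pore, at 52.6 to 65.1 against 16.5 to 22.7 CPM.

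Neuron-like cells led Kcnk2, Kcnk4 and Kcnk9. Kcnk9, a close relative of Kcnk3, was neuronal in this tissue, with 77.5 to 89.3 CPM in neuron-like cells and 4.45 to 7.28 CPM in astrocyte-like cells. Kcnk2, the stretch- and lipid-sensitive relative of Kcnk10, had 174 (SC), 225 (5-day) and 208 (15-day) CPM in neuron-like cells, but ependymal-like cells had 165 to 174 and OPC-like cells 141 to 150.2 CPM, so in the SC library the first classes did not differ beyond counting error. Kcnk1 had 121 to 133 CPM in astrocyte-like and 101 to 129 CPM in OPC-like cells, and the order of these classes differed between libraries. Kcnk7, which is not known to carry current, was led by ependymal-like cells with 15.9 to 23.9 CPM.

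**Figure D2:**
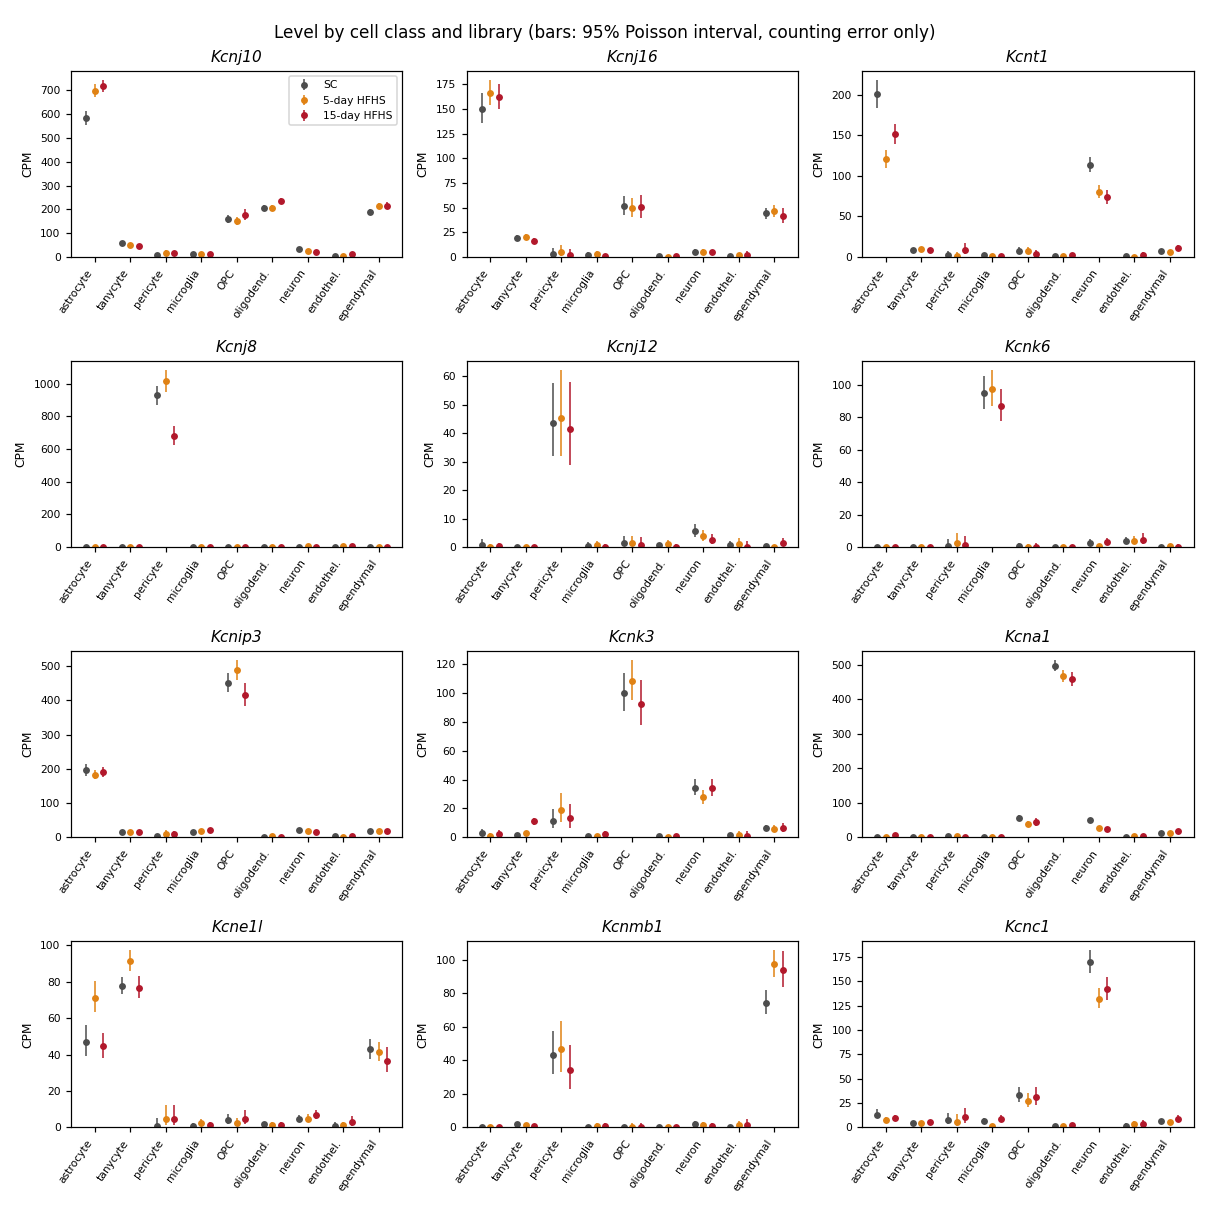
CPM (vertical axis) of 12 members in 9 cell classes, with 1 point per library (SC, 5-day, 15-day) and bars for the 95% Poisson interval. Kcnj8 reaches 682 to 1014 CPM in pericyte-like cells and at most 8.94 CPM in endothelial-like cells, and Kcnk6 stands at 87.0 to 97.6 CPM in microglia-like cells.

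Voltage-gated genes were the largest group, and neuron-like cells led 12 of the 28. Kcnq3, a subunit of the current that damps repeated firing, stood in neuron-like cells at 169 (SC), 104 (5-day) and 105 (15-day) CPM, against 63.9 to 76.9 CPM in OPC-like cells. Kcnc1 and Kcnc2, of fast-spiking neurons, had 132 to 170.0 and 36.8 to 52.6 CPM in neuron-like cells. Kcnb2, of the delayed rectifier, had 45.0 to 65.0 CPM there, against 33.9 to 41.6 CPM in OPC-like cells. The ether-a-go-go relatives Kcnh1, Kcnh4, Kcnh6 and Kcnh7 were led by neuron-like cells, with 19.9 to 44.7, 5.18 to 6.20, 4.19 to 4.63 and 30.6 to 54.5 CPM, while Kcnh8, of the same family, was led by OPC-like cells at 41.8 to 47.9 CPM. Kcna4, a fast inactivating subunit, had 14.6 to 22.4 CPM in neuron-like cells.

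Several voltage-gated genes were led by glia. Kcna1, known from the axon next to the node of Ranvier, stood in oligodendrocyte-like cells at 498 (SC), 468 (5-day) and 459 (15-day) CPM. OPC-like cells had 38.4 to 55.1 CPM and neuron-like cells 49.8, 26.7 and 23.2 CPM of Kcna1. Thinned to 1000 UMIs, a Kcna1 UMI was seen in 36.1% (SC), 38.8% (5-day) and 39.1% (15-day) of oligodendrocyte-like cells, against 0%, 0.129% and 0.247% of astrocyte-like cells, and unthinned in 90.7 to 97.4% and 0.254 to 1.18%. Kcna6 was also led by oligodendrocyte-like cells, at 81.4 to 97.3 CPM, whereas Kcna2, the usual axonal partner of Kcna1, was led by astrocyte-like cells at 159.7 to 189 CPM. Kcnd2, of the fast transient current, had 197 (SC), 197 (5-day) and 210.2 (15-day) CPM in astrocyte-like cells and 194, 172 and 142 CPM in OPC-like cells. Kcnd3, of the same current, had 64.5 to 73.8 CPM in OPC-like and 44.6 to 61.0 CPM in neuron-like cells, and Kcnd1 24.3 to 24.9 CPM in microglia-like cells.

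Among silent subunits, Kcnf1 and Kcns2 were led by neuron-like cells, with 15.4 to 19.6 and 6.43 to 12.4 CPM. Kcns3 was led by astrocyte-like cells with 22.3 to 31.5 CPM and Kcns1 by ependymal-like cells with 7.92 to 10.0 CPM, so Kcns1, Kcns2 and Kcns3 each had a different leading class. Kcng1 was sparse and highest in pericyte-like cells with 7.98 (SC), 4.78 (5-day) and 2.38 (15-day) CPM. Neuron-like cells had 3.85, 1.79 and 2.32 CPM of Kcng1, nearly the same as pericyte-like cells at 15 days. Kcna5 and Kcnq1, known from vessels and from epithelia, were among the top members of endothelial-like cells, where Kcnq1 had 11.1 to 21.8 CPM. Kcna5 had 29.9 (SC), 27.1 (5-day) and 19.5 (15-day) CPM in endothelial-like cells and 23.5, 31.9 and 22.1 CPM in neuron-like cells, with no class first in all 3 libraries. Kcnh2, a subunit known from the heart, was shared by tanycyte-like cells at 36.7 to 41.8 CPM and ependymal-like cells at 33.1 to 41.0 CPM.

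The small-conductance calcium-activated genes Kcnn1, Kcnn2 and Kcnn3 were led by astrocyte-like cells. Kcnn2 stood at 121 (SC), 104 (5-day) and 105 (15-day) CPM in astrocyte-like cells, against 21.6, 13.6 and 8.75 CPM in neuron-like cells. Kcnn3 had 78.4 to 85.3 CPM in astrocyte-like and 64.6 to 70.4 CPM in ependymal-like cells, and Kcnn1 11.5 to 12.5 CPM in astrocyte-like cells. The sodium-activated Kcnt1 was led by astrocyte-like cells too, at 201 (SC), 121 (5-day) and 152 (15-day) CPM, with neuron-like cells at 114, 80.1 and 73.6 CPM. Kcnma1, the large-conductance calcium-activated pore, had 129.6 to 173 CPM in neuron-like cells and 68.5 to 80.0 CPM in OPC-like cells. Kcnn4, the intermediate-conductance gene, was led by ependymal-like cells at 33.4 to 38.4 CPM.

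The accessory subunits did not always share the leading class of their pore. Kcnmb1, the smooth muscle partner of Kcnma1, had 74.5 to 97.5 CPM in ependymal-like and 34.4 to 46.6 CPM in pericyte-like cells, while Kcnma1 was led by neuron-like cells. Kcnmb4, the brain partner of Kcnma1, had 110.3 to 129 CPM in ependymal-like and 108 to 127 CPM in OPC-like cells. Kcnip3, a calcium sensor that binds the channels of Kcnd2, stood in OPC-like cells at 451 (SC), 488 (5-day) and 416 (15-day) CPM, against 183 to 196 CPM in astrocyte-like cells. Its relatives Kcnip2 (31.9 to 43.8 CPM), Kcnip1 (47.9 to 57.1 CPM) and Kcnip4 were led by neuron-like cells, as was the beta subunit Kcnab2 at 15.9 to 24.2 CPM. OPC-like cells were close for Kcnip1, at 31.6 to 42.6 CPM. Kcne4, an inhibitory single-span subunit, had 20.2 to 37.0 CPM in pericyte-like cells, from 17 to 40 UMIs. Kcne1l was the member led by tanycyte-like cells, at 77.7 (SC), 91.4 (5-day) and 76.7 (15-day) CPM, with 44.5 to 71.3 CPM in astrocyte-like cells.

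Of the genes that encode no subunit, Kcnq1ot1, the imprinted noncoding RNA that lies antisense to Kcnq1, had more UMIs than any other member in 5 of the 9 classes, on counts not scaled by length. It stood in neuron-like cells at 1118 (SC), 873 (5-day) and 755 (15-day) CPM and in OPC-like cells at 623 to 695 CPM. Kcnmb4os2, antisense to Kcnmb4, had 26 to 29.8 CPM in OPC-like cells. The exons of 21 members overlap those of a gene on the other strand, and Kcnk4 overlaps Catsperz on the same strand, so their counts are uncertain where reads were not assigned by strand.

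A list of 26 genes that work with these channels was read beside the members, chosen with earlier results of these data known. The leading class was the same in all 3 libraries for 22 of the 26, of which 9 were led by neuron-like, 4 by astrocyte-like and 4 by oligodendrocyte-like cells. Aqp4, the water channel found beside Kcnj10 on astrocyte endfeet, had 1218 to 1266 CPM in astrocyte-like cells. Cntn2, which holds Kcna1 channels in place on axons, had 341 to 389 CPM in oligodendrocyte-like cells, and Hcn2, a pacemaker channel gene, 267 to 292 CPM there.

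Named subclasses of neuron-like cells differed in the level of some members, pooled here over the 3 libraries because of few cells. In 69 AgRP-like neurons, the hunger-promoting type of this nucleus, Kcnk2 had 432 CPM (interval 405 to 461), with 539.9 (SC, 6 cells), 435 (5-day) and 399 (15-day) CPM in the libraries. The 106 ventromedial-like neurons had 60.1 CPM of Kcnk2, with 54.0 (SC), 95.5 (5-day) and 36.0 (15-day). For Kcnq3 the order was the other way, with 470 CPM (435 to 507) in ventromedial-like neurons, at 549 (SC), 368 (5-day) and 419 (15-day), and 46.1 CPM in AgRP-like neurons, at 30.9, 52.6 and 38.8 CPM. Both orders were the same in each library, though these neurons had been grouped by other markers in the same cells. In 41 dopamine-like neurons, Kcnma1 had 283 and Kcnk9 234 CPM.

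For the diets, a member was called in a class when the class held at least 50 of its UMIs over both libraries, the ratio of CPM was at least 1.5 either way, and its exact conditional-binomial interval at 95% excluded a ratio of 5 to 4 or less. This rule of size is no test, and both comparisons use the same SC library. At 5 days, 13 of 216 measurements of a member in a class were called (6.02%), all lower in the HFHS library, against 1.49% of all measured genes and classes (0.832% lower). At 15 days, 13 of 208 were called (6.25%), against 3.14%. Of these 4 were higher (1.92%, background 1.46%) and 9 lower (4.33%, background 1.68%). TMM scaling sets the bulk of genes level between libraries. With it, the calls were 1 higher and 6 lower at 5 days and 5 higher and 4 lower at 15 days. The share of all genes called was not counted under TMM scaling. Of the 26 calls made without TMM scaling, 20 were in neuron-like cells. The background there was itself higher, at 6.22% of all genes at 5 days and 11.7% at 15 days.

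In neuron-like cells, the members lay mostly lower in both HFHS libraries. At 5 days 45 of 56 measured members were below the SC level, with a median log2 ratio of -0.38 against -0.15 for all genes, and 11 (19.6%) were called lower against 3.27% of all genes. At 15 days 47 of 55 were below, with a median of -0.38 against -0.18, and 8 (14.5%) were called lower against 8.25%, with 1 (1.82%) higher against 3.41%. Without the subclusters named for other cell types, the members' medians were -0.47 (5-day) and -0.34 (15-day), with 13 and 8 called lower. With cells of at most 10% mitochondrial UMIs, 41 of 56 were below at 5 days and 33 of 55 at 15 days. The members' medians were then -0.33 (all genes -0.11) and -0.15 (all genes -0.05), and 5 and 1 were called lower. The share of all genes called was not counted under either alternative. In the main result, the members called lower at both times were Kcna1, Kcnh1, Kcnh7, Kcnn3 and Kcnq3. Kcnq3 had 104 CPM in the 5-day and 105 CPM in the 15-day library, against 169 CPM in SC, for log2 ratios of -0.69 (interval -0.86 to -0.53) and -0.69 (-0.87 to -0.52). Kcnh1 had 19.9 and 27.5 CPM, against 44.7 CPM in SC, at -1.17 (-1.52 to -0.81) and -0.70 (-1.05 to -0.36).

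Kcnh7 had 35.7 CPM in the 5-day and 30.6 CPM in the 15-day neuron-like cells, against 54.5 CPM in SC, and Kcnn3 had 23.1 and 24.2 CPM against 41.5 CPM. Kcna1 had 26.7 and 23.2 CPM against 49.8 CPM, while the oligodendrocyte markers summed to 2091 (5-day) and 1093 (15-day) CPM in these cells against 2845 CPM in SC, with all 12 markers detected in each. Without the subclusters named for other cell types the log2 ratios of Kcna1 were -1.64 (5-day) and -1.06 (15-day). Oligodendrocyte-like cells had 468 and 459 CPM of Kcna1 against 498 CPM in SC. Among those called at 5 days alone were Kcna2 (54.4 against 84.9 CPM in SC), Kcnab1 (17.9 against 35.1), Kcnc4 (17.5 against 30.4), Kcnh5 (5.38 against 12.8) and Kcnk13 (5.98 against 12.0). Called at 15 days alone were Kcnj3 (41.7 against 63.5 CPM in SC), Kcnn2 (8.75 against 21.6) and Kcnt1 (73.6 against 114). Kcnk2 lay on the other side, with 225 CPM (5-day) and 208 CPM (15-day) against 174 CPM in SC and log2 ratios of 0.38 and 0.26, below the size of a call.

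**Figure D3:**
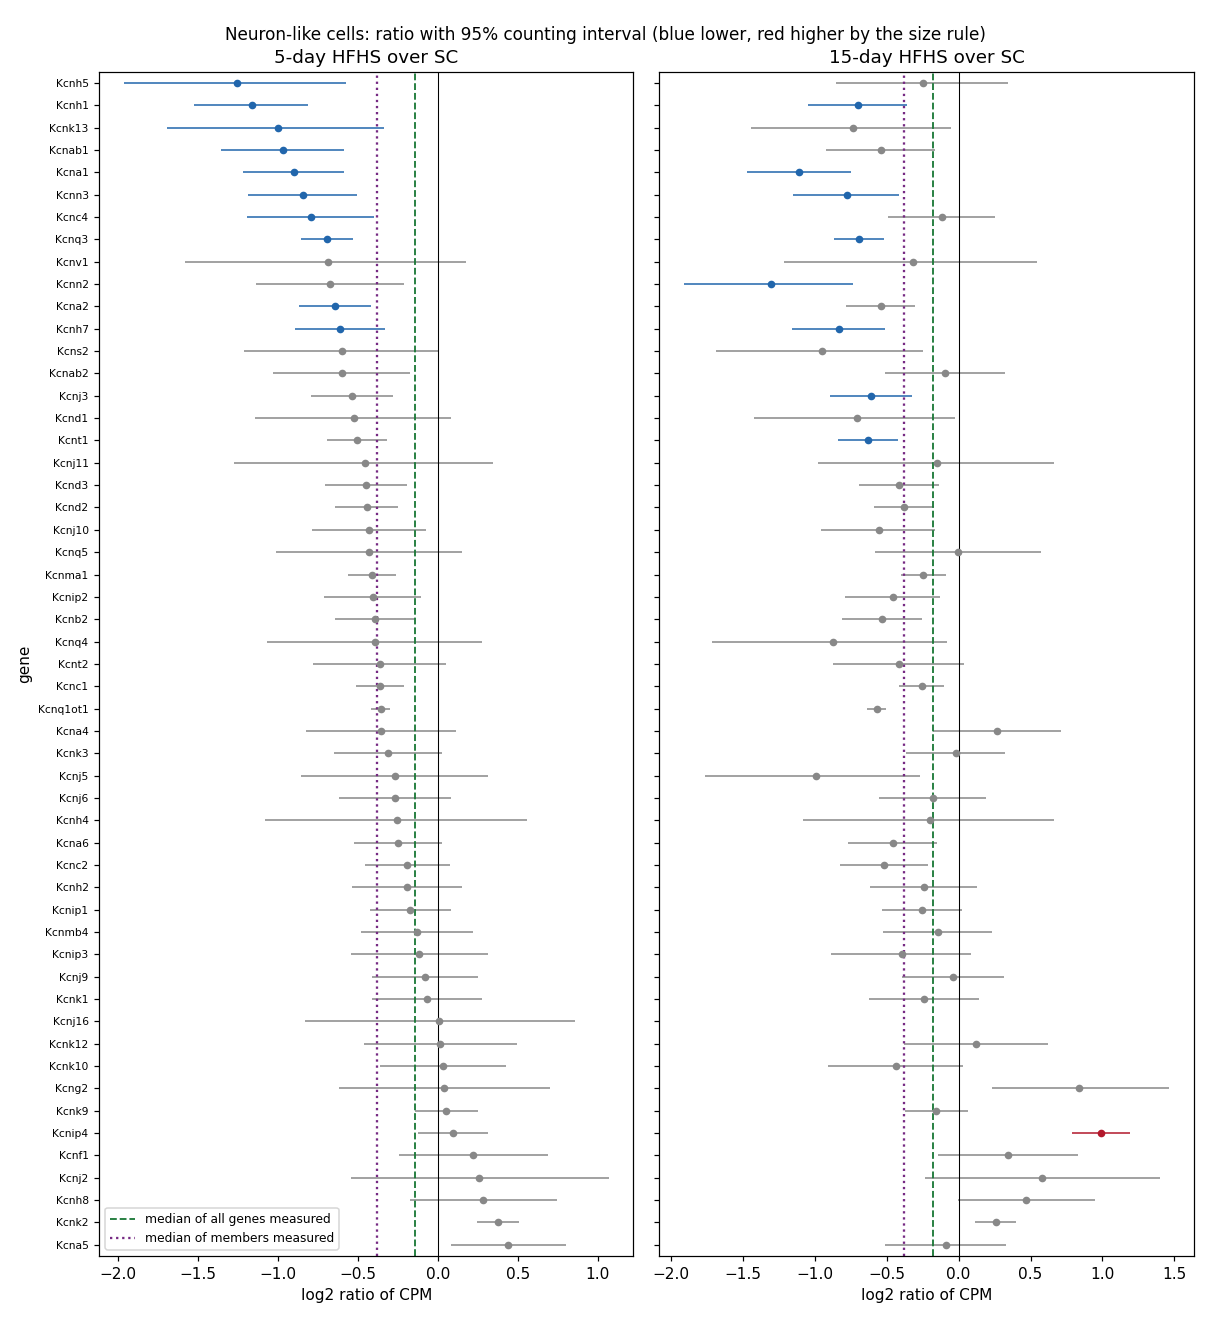
Log2 ratio of CPM in neuron-like cells (horizontal axis, bars for the 95% interval) for the members shown, 5-day over SC and 15-day over SC, with calls in blue (lower) and red (higher), the median of all genes dashed and that of all measured members dotted. At 15 days Kcnip4 is the 1 member called higher, at 0.99, while the members' median is -0.38 in both panels.

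Other values of the neuron-like cells differed with the libraries. Their median mitochondrial share was 8.45% (5-day) and 7.57% (15-day) against 11.9% in SC, their ribosomal share 8.04% and 8.31% against 4.83%, and the summed 15 neuron markers 20885 and 21178 CPM against 25489 CPM. The noncoding RNA Meg3 had 8822 and 9169 CPM against 12089 CPM. The make-up of the class differed as well, since cluster 17, led by Snhg11 and Meg3, held 48.1% (5-day) and 42.0% (15-day) of neuron-like UMIs against 69.5% in SC. The AgRP and Npy cluster, 30, held 27.5% and 18.5% against 4.16%, from 33, 33 and 6 cells in the 5-day, 15-day and SC libraries. Members summed to 4212 to 4643 CPM in cluster 17 and to 1872 to 1995 CPM in cluster 30, so the cluster with the highest summed level took a smaller share of UMIs in the HFHS libraries than in SC.

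Within clusters the difference was smaller. In cluster 17, 41 of 50 measured members were below SC at 5 days with a median log2 ratio of -0.16 (all genes -0.02). Of these members 1, Kcnh1, was called lower at 31.5 CPM against 56.0 CPM in SC. Of all genes there, 71 of 11122 were called lower. At 15 days 35 of 50 members were below with a median of -0.18 (all genes -0.07). No member was called lower, against 171 of 10614 genes. Kcnq3 in cluster 17 had 162 (5-day) and 188 (15-day) against 223 CPM in SC, not called. In cluster 21, led by Cartpt, Gal and Pomc, 16 of 27 members were below at 5 days and 13 of 32 at 15 days. The members' medians were -0.12 and 0.03. Kcnip2 was called lower there at 5 days, as were 49 of 6792 genes. In cluster 30, Kcnq1ot1 was called higher in both comparisons, with 6 SC cells behind the ratio. It was 1 of 17 measured members at 5 days and 1 of 7 at 15 days. Genes called higher there were 45 of 4731 at 5 days and 63 of 3095 at 15 days. Clusters 19 and 30 were left out when clusters 17, 18 and 21 were held at the same mix in every library. With that mix, 2 members were called lower in neuron-like cells at 5 days and 0 at 15 days. With TMM scaling of all neuron-like cells, these were 5 and 3. The share of all genes called was not counted in either case.

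**Figure D4:**
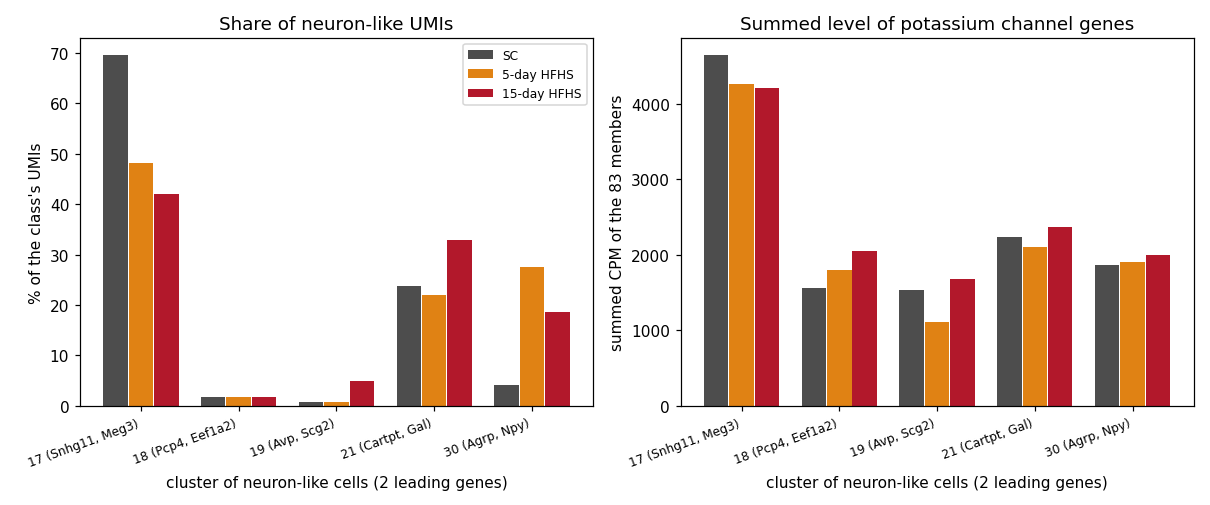
Share of neuron-like UMIs (left, percent) and summed CPM of the 83 members (right) in each neuron cluster, for the SC, 5-day and 15-day libraries. Cluster 17 has the highest summed CPM, 4212 to 4643, and its share of UMIs is 69.5% in SC, 48.1% at 5 days and 42.0% at 15 days.

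Kcnip4, a calcium sensor that binds the fast transient channels and changes their inactivation, was the member called higher in neuron-like cells. It had 137 CPM in the 15-day library against 69.3 CPM in SC, a log2 ratio of 0.99 (0.79 to 1.19), while the 5-day library had 74.0 CPM. The same direction was seen within cluster 17 at 134 against 65.6 CPM in SC (log2 1.03, 0.75 to 1.31) and cluster 21 at 159 against 75.5 CPM (1.08, 0.70 to 1.46). In cluster 30 the values were 133 CPM and 82.3 CPM in SC, and the interval of -0.08 to 1.56 included 0. Ependymal-like cells had 39.9 against 26.2 CPM in SC, with an interval of 0.25 to 0.96 that did not meet the rule, though ependymal-like cluster 8 met it, at 47.6 against 26.6 CPM (log2 0.84, 0.45 to 1.23). On fewer than 50 UMIs, intervals also lay above 0 in astrocyte-like cluster 0 (23 UMIs against 5 in SC), microglia-like cluster 7 (12 against 1), oligodendrocyte-like cluster 14 (6 against 1) and tanycyte-like cluster 12 (19 against 8), and tanycyte-like cluster 9 had 29.5 against 20.4 CPM, not called. Exons of Kcnip4 overlap 5730480H06Rik on the other strand, which had 19.8 CPM in 15-day against 26.7 CPM in SC neuron-like cells. In ependymal-like cells 5730480H06Rik had 34.4 CPM in 15-day against 30.6 CPM in SC. Its part in the Kcnip4 counts was not tested.

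**Figure D5:**
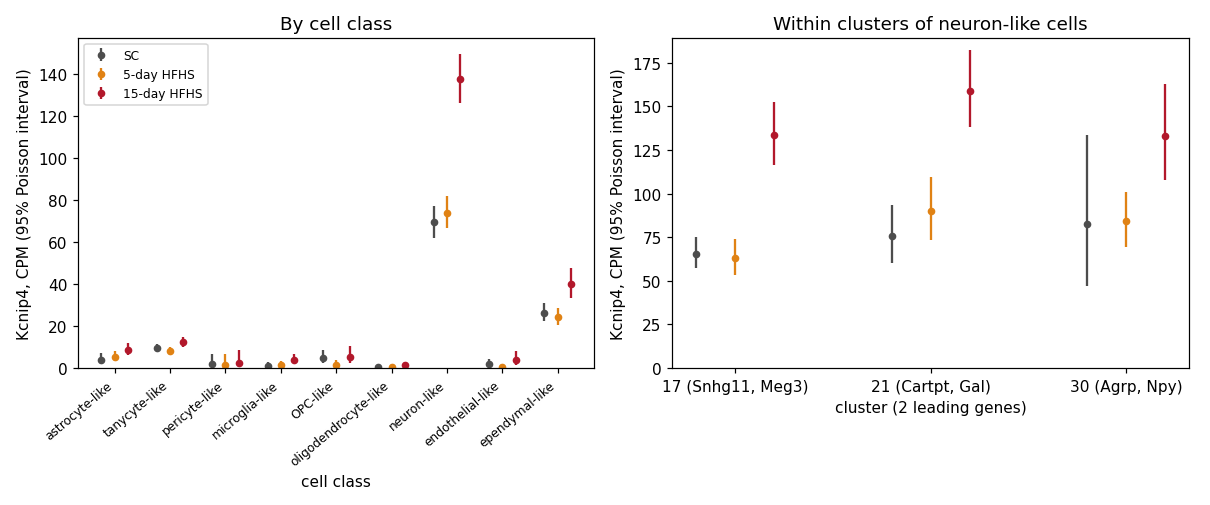
CPM of Kcnip4 by cell class (left) and within neuron clusters 17, 21 and 30 (right), with 1 point per library and 95% Poisson intervals. The 15-day point is highest in each of the 3 clusters, at 134, 159 and 133 CPM.

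In astrocyte-like cells, Kcnt1 had 121 CPM at 5 days against 201 CPM in SC (log2 -0.74, -0.92 to -0.55). It was 1 of 2 members called of 25 measured (8.0%), both lower, against a background of 1.6% (1.05% lower). Kcnt1 lay lower at 5 days in each of the 2 main astrocyte-like clusters, 0 and 10, with 173 CPM against 234 CPM in SC and 111.5 against 184 CPM. At 15 days no member was called (background 0.773%), with 152 CPM of Kcnt1. The 15 neuron markers summed to 254 (5-day) and 541 (15-day) CPM in astrocyte-like cells against 401 CPM in SC, lower at 5 days as Kcnt1 was, and their part in the result was not tested. Kcnj10 had 698 CPM (5-day) and 717 CPM (15-day) against 583 CPM in SC, at log2 ratios of 0.26 (0.17 to 0.35) and 0.30 (0.21 to 0.39), short of a call, and Kcnj16 0.15 and 0.11 with intervals that included 0.

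In oligodendrocyte-like cells Kcnk13 was the 1 call of 9 measured members at 15 days (11.1%, background 1.76%, and 0.707% lower), with 48.6 CPM against 79.1 CPM in SC and a log2 ratio of -0.70 (-0.93 to -0.48). The 5-day library had 83.8 CPM. The value lay lower in each of the 3 oligodendrocyte-like clusters, 14, 16 and 26, with log2 ratios of -0.55, -0.51 and -0.61, where it was not called. Microglia-like cells had 41.8 CPM of Kcnk13 against 48.4 CPM in SC, an interval that included 0.

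Tanycyte-like cells had 3 members called higher of 38 at 15 days (7.89%, background 2.77%, and 2.05% higher), each at a low level. Kcnk3 had 11 against 1.73 CPM in SC, and Kcnk9 6.06 against 1.86 CPM. The log2 ratio of Kcnk3 was below 0 under 4 alternatives, from -0.28 to -0.10. Of the 89 Kcnk3 UMIs, 34.8% came from 1 cell and 76 from cluster 12, which had 1 SC Kcnk3 UMI, and 32.7% of the Kcnk9 UMIs also came from 1 cell. The markers of the neighbouring pars tuberalis summed to 1132 CPM in these cells (6 of 6 detected) against 382 CPM in SC (4 of 6), and the neuron markers to 1798 against 1367 CPM, and their part in the result was not tested.

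No member was called in pericyte-like, microglia-like, OPC-like, endothelial-like or ependymal-like cells at either time. The background in these classes was low too, at 1.33% and 1.63% of all genes at 5 and 15 days in pericyte-like, 0.742% and 1.65% in microglia-like, 0.373% and 1.85% in OPC-like, 0.513% and 2.63% in endothelial-like and 0.33% and 1.53% in ependymal-like cells. At 5 days it was 0.503% in tanycyte-like and 1.07% in oligodendrocyte-like cells, again with no member called. In pericyte-like cells Kcnj8 had 682 CPM at 15 days against 927 CPM in SC, a log2 ratio of -0.44 (-0.59 to -0.29), and 1014 CPM at 5 days (0.13). The 10 pericyte markers summed to 21464 (15-day) and 28469 (5-day) against 26867 CPM in SC, which moved the same way. Kcnd2 in OPC-like cells had 142 CPM at 15 days against 194 CPM in SC (-0.45, -0.69 to -0.21), and Kcnip3 differed by 0.11 at 5 days and -0.12 at 15 days with intervals that included 0. Kcnk6 in microglia-like cells differed by 0.04 and -0.13, with intervals of -0.19 to 0.27 and -0.35 to 0.10.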

How the data were processed

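Cells of 3 pools, 1 per diet, were sequenced with a 10x Genomics droplet kit, per the labels. Values in the deposited matrices are UMI counts, whole and not normalized, made with Cell Ranger on GRCm38, with SAMtools and Scanpy 1.4.4 also named, per the submitters' processing notes. The annotation and the strand setting of the counting were not given in the sources used here. The members, gene lists and partner list were chosen with earlier results of these data known.

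Barcodes under 500 genes or over 20% mitochondrial UMIs were dropped. Scrublet's automatic call marked 0, 2 and 84 barcodes and was not used. The highest-scoring barcodes were removed at 0.8% per 1000 barcodes (209, 145 and 242). Cells were clustered in Scanpy 1.11.5 (3000 variable genes without Kcn genes, 40 components, 15 neighbours, Leiden resolution 1), giving 34 clusters, which were named from marker genes. A few genes are counted with the rest but are not reported here by name. No test was possible between single libraries. The size rule was tested on simulated data. Members given with values are the top 5 of each class by mean CPM, those at least 2 times above the next class, and those past the size rule, with others added for their role in a group. Thinned shares leave out cells under 1000 UMIs. Depth ranged from 43193012 to 59315940 UMIs per library. Alternatives changed the filters, scaling, clustering and size rule. TMM factors came from edgeR 4.0.16 in R 4.3.3. The other tools were SciPy 1.17.1, NumPy 2.4.6, igraph 0.11.9, pandas 2.3.3 and Matplotlib 3.10.9 in Python 3.11.15.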

Additional observations from a re-analysis of the deposited data

Results flagged for a closer look

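Barcodes with over 20% mitochondrial UMIs were left out of every comparison and also held member UMIs, which summed to 3595 (SC), 3350 (5-day) and 3120 (15-day) CPM in them.

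Some members lay on opposite sides of SC in different classes with intervals that both excluded 0. These differences between classes were not tested. At 5 days Kcnk13 had a log2 ratio of 0.33 (interval 0.02 to 0.63) in microglia-like cells and -1.0 in neuron-like cells. In the neuron-like cluster led by Snhg11 and Meg3 the Kcnk13 ratio was -0.23, with an interval of -1.03 to 0.54 that included 0. Oligodendrocyte-like cells led Kcnk13, and the part of their RNA in the neuron-like value was not tested. At 15 days Kcna1 had 0.66 in ependymal-like cells and -1.11 in neuron-like cells. In tanycyte-like cells at 15 days Kcnh1 had 0.68, Kcnh7 0.86 and Kcnj3 0.69, against -0.70, -0.83 and -0.61 in neuron-like cells, from 2.60 to 5.81 CPM per library in tanycyte-like cells.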

How the results depend on the processing

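No paired analysis was possible because each diet had 1 library. Of 13 calls at 5 days and 13 at 15 days, 7 and 7 were made with at most 10% mitochondrial UMIs (0 higher and 7 lower, 5 higher and 2 lower, with 7 and 3 of the calls shared), 7 and 9 with TMM scaling (1 higher and 6 lower, 5 higher and 4 lower), 7 and 8 with median-of-ratios scaling, 4 and 4 with the same mix of clusters in every library in each class (0 higher and 4 lower, 4 higher and 0 lower), 22 and 23 with no UMI minimum, and 1 and 4 at a ratio of 2. Cells thinned to 1000 UMIs gave 0 and 0, where few genes reach 50 UMIs. Each library clustered on its own gave 20 at 5 days (7 higher, 13 lower), and removal of 10% free RNA gave 20 at 15 days (5 higher, 15 lower). Calls over all genes were not counted under any of these alternatives. With TMM scaling the median of all genes in neuron-like cells was 0.00 at 5 days and 0.01 at 15 days, and that of the members -0.24 and -0.19. With the same mix, which left out neuron-like clusters 19 and 30, the members' medians in neuron-like cells were -0.14 and -0.15.

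Changes of sign were searched for among called log2 ratios alone, so those of uncalled ratios are not listed. Sign changed for Kcnh5 in neuron-like cells at 5 days (0.055 thinned) and Kcnn3 there (thinned, 1.11 at 5 days and 0.49 at 15 days). It also changed for Kcnt1 there at 15 days (0.12 with at most 10% mitochondrial UMIs). Kcnk3 in tanycyte-like cells at 15 days had -0.19 (at most 10% mitochondrial UMIs), -0.28 (at least 1000 genes), -0.17 (own clustering) and -0.10 (Kcn genes allowed in the clustering). The cause was not tested. Kcnip4 in neuron-like cells at 15 days ranged from 0.91 to 1.18 over all alternatives. Members with 1 leading class in all 3 libraries numbered 58 to 72, and 73 to 74 without 1 library. Those led by neuron-like cells numbered 25 to 35. Pericyte-like cells limit depth most, with 837619 UMIs at 5 days.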

Other observations

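Clusters without a class name also held member UMIs. Cluster 15 summed to 1263 (SC), 1269 (5-day) and 1447 (15-day) CPM over the members and was led by Kcnj10 at 279, 285 and 325 CPM. Clusters 32 (44 cells, 967 CPM) and 33 (36 cells, 1040 CPM) came from the 15-day library.

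Among the 26 partner genes, 4 of 128 measurements in a class were called at 5 days, 3 higher and 1 lower, and 7 of 130 at 15 days, 6 higher and 1 lower, against 1.49% and 3.14% of all measured genes and classes. Those higher included Slc12a5 in tanycyte-like cells at 5 days and, at 15 days, Atp1b2 in oligodendrocyte-like and endothelial-like cells, Dpp6 in endothelial-like cells and Hcn3 in tanycyte-like cells. Of the lower calls, Slc12a2, a chloride importer, had 43.2 CPM in 15-day neuron-like cells against 89.4 CPM in SC (log2 -1.05), and Atp1b1, a sodium pump subunit, 43.5 CPM in 5-day astrocyte-like cells against 82.9 CPM in SC (-0.93).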
